A study of Mus musculus with 5 samples.

Results

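The expression of 10 genes that mark macrophages and dendritic cells was followed in kidney tissue of *Fnip1* null mice. These were *Adgre1*, *Csf1r*, *Cd68*, *Itgam*, *Itgax*, *Cd14*, *Lyz2*, *Mrc1*, *Cd163* and *Mertk*. They were picked by symbol from the 24421 gene symbols in the count tables, and all 10 members were found there. RNAseq was performed on flash frozen cortical kidney tissue of 3 *Fnip1* null mice (*Fnip1*-/-; mice 8637, 9210 and 9121) and 2 wildtype mice (*Fnip1*+/+; mice 9055 and 9056), all of C57BL6J background, with 1 library per mouse and no treatment in either group. The null allele arose by chemical (ENU) mutagenesis and was carried in every cell of the animal, kidney and bone marrow alike, so a difference in the kidney was not confined to a kidney-specific deletion. The labels give the controls as *Fnip1*+/+, whereas the text of the study also speaks of *Fnip1*+/- controls, and they are called wildtype here. The labels give neither the age nor the sex of a mouse. A figure legend of the study gives an age range for the RNAseq mice, but not the age of each mouse.

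Macrophages and dendritic cells are the resident phagocytes of the kidney interstitium. They depend on signals through the receptor CSF1R or the related receptor FLT3, sample the fluid around the tubules, clear dead cells and debris, and present peptides on MHC class II. The 10 markers fall into groups by role: identity and lysosome (*Adgre1*, *Cd68*, *Lyz2*), adhesion (*Itgam*, *Itgax*), sensing of bacterial lipid (*Cd14*), uptake (*Mrc1*, *Cd163*, *Mertk*) and survival (*Csf1r*). In the kidney no single marker separates macrophages from dendritic cells, since both can carry *Itgam*, *Itgax* and *Adgre1*.

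Gene counts ran from 15799114 to 19132145 per mouse, and 3 counts corresponded to between 0.158 and 0.186 normalized CPM, that is, counts scaled to a common library size. *Fnip1* itself was at 16.0 to 21.0 CPM in *Fnip1* null mice and at 48.7 and 51.8 CPM in wildtype mice, which matched the labels. Mouse 9121 had 314 CPM of *Xist* and no counts of *Ddx3y*, whereas the other 4 mice had 42.8 to 52.2 CPM of *Ddx3y* and at most 1.41 CPM of *Xist*, so 1 *Fnip1* null mouse carried the female pattern and sex was not balanced between the genotypes. Mouse 8637 lay closer to wildtype mouse 9055 than to *Fnip1* null mouse 9121 over all genes, with correlations of log2 CPM of 0.988 and 0.974. Its correlation with the other *Fnip1* null mouse, 9210, was 0.987, close to that with mouse 9055. Results are therefore also given without mouse 8637 and without mouse 9121.

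Of the 10 markers, 7 had a higher mean level in *Fnip1* null kidneys, between 2.15-fold and 2.90-fold higher, while *Csf1r* and *Mertk* had lower means and *Cd163* was near its detection limit. Every CPM of *Adgre1*, *Cd68*, *Itgam*, *Itgax*, *Cd14* and *Mrc1* in a *Fnip1* null mouse lay above both wildtype mice, which is 6 of 10 markers, against 22.9% of the 13874 genes tested. *Csf1r* was the single marker for which each *Fnip1* null mouse lay under both wildtype mice, which 23% of all genes tested also were. The median log2 fold change of the 9 markers tested was 1.43, beside 0.0035 over all genes tested.

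The quasi-likelihood test of edgeR did not place any marker past an FDR of 5% and 2-fold, with 0 of 9 called higher (0.404% of all genes tested) and 0 called lower (0.123%). At FDR 5% alone, 0 markers were higher (0.526%). At an unadjusted p under 0.05, 7 markers were higher (14% of all genes tested) and *Csf1r* was lower (11.2%). The exact test of edgeR called 5 markers higher (3.03% of all genes tested), the likelihood ratio test called 5 (3.44%) and DESeq2 called 5 (2.64%), and in each of the 3 tests these were *Adgre1*, *Cd68*, *Itgam*, *Itgax* and *Mrc1*. None of the 3 called a marker lower, beside 1.04%, 1.09% and 0.872% of all genes tested in the same order, and *Csf1r* had an unadjusted p under 0.05 in each. Without mouse 8637, the quasi-likelihood test called 7 markers higher, with adjusted p-values between 0.0122 and 0.0371, where 4.57% of all genes tested were called higher. Leaving out mouse 9121 instead, it called 0 markers higher (0.678% of all genes tested), and leaving out mouse 9210 it called 0 (0%). The log2 fold changes of *Adgre1*, *Cd68*, *Itgam*, *Itgax* and *Mrc1* without mouse 9121 were 1.24, 1.10, 1.18, 1.46 and 1.16. Their adjusted p-values by the quasi-likelihood test then lay between 0.0551 and 0.153.

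**Figure D1:**
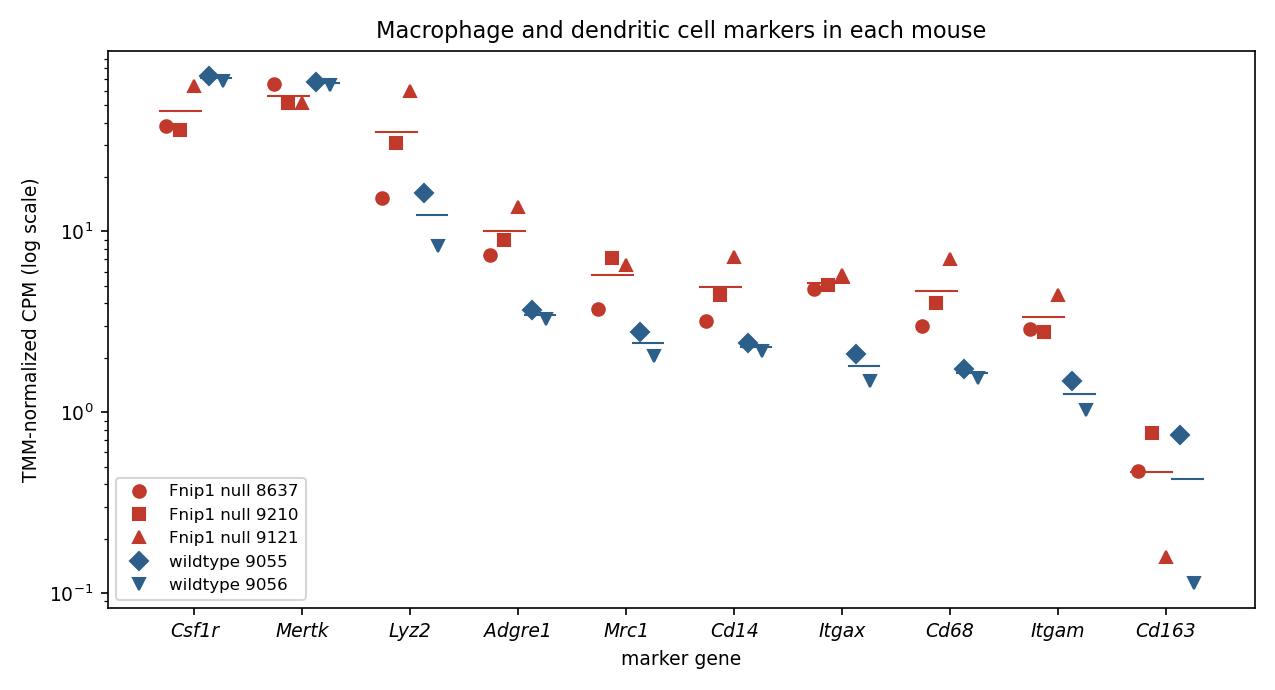
Normalized CPM (log scale) of each of the 10 markers in each mouse, ordered by the wildtype mean, with *Fnip1* null mice in red, wildtype mice in blue and a horizontal line at each group mean. The red symbols stand above both blue symbols for 6 markers, *Csf1r* shows the reverse, *Lyz2* and *Mertk* overlap, and *Cd163* scatters below 1 CPM in both groups.

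*Adgre1* encodes an adhesion receptor that is widely used to mark tissue macrophages. Its level was 7.37, 8.98 and 13.7 CPM in *Fnip1* null mice 8637, 9210 and 9121, and 3.67 and 3.26 CPM in wildtype mice 9055 and 9056. The groups did not overlap, and the lowest *Fnip1* null mouse was mouse 8637. The fold of the means was 2.89, from 10.01 ± 3.28 CPM (SD, n = 3) over 3.46 ± 0.287 CPM (SD, n = 2). The log2 fold change was 1.53 (SE 0.31), with an adjusted p-value of 0.0738 by the quasi-likelihood test and 0.00079 by the exact test. RNAseq of a whole tissue averages over its cells. More marker cells, more marker RNA per cell and marker RNA from other kidney cells therefore cannot be told apart for this or any other marker.

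*Cd68* encodes a glycoprotein of the lysosomal membrane of macrophages. Its level was 3.01, 4.04 and 7.02 CPM in mice 8637, 9210 and 9121, and 1.74 and 1.54 CPM in the wildtype mice. The order of the *Fnip1* null mice was that of *Adgre1*, with mouse 9121 highest and no overlap with wildtype. The log2 fold change of *Cd68* was 1.52 (SE 0.42), with an adjusted p-value of 0.111 by the quasi-likelihood test and 0.023 by the exact test.

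*Lyz2* encodes the lysozyme of macrophages, monocytes and neutrophils, an enzyme that cuts bacterial cell walls. Its level was 15.3, 30.9 and 59.8 CPM in *Fnip1* null mice 8637, 9210 and 9121, and 16.3 and 8.29 CPM in wildtype mice 9055 and 9056. The groups overlapped, because mouse 8637 was below wildtype mouse 9055. *Lyz2* was the most variable marker, with the highest mouse 7.21 times the lowest, and its log2 fold change was 1.52 (SE 0.59; quasi-likelihood adjusted p = 0.182, DESeq2 adjusted p = 0.219). Without mouse 9121 the log2 fold change was 0.91, and without mouse 8637 it was 1.89. *Lyz1*, the neighbouring near-identical lysozyme gene, had 18, 32 and 72 counts in *Fnip1* null mice and 11 and 8 counts in wildtype mice, and reads that fit both genes are left out by the counting, so the level of *Lyz2* is uncertain to that extent.

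*Itgam* and *Itgax* encode CD11b and CD11c, the alpha chains of complement receptors that pair with the common beta2 chain encoded by *Itgb2*. *Itgam* was at 2.89, 2.79 and 4.44 CPM in mice 8637, 9210 and 9121, and at 1.49 and 1.03 CPM in wildtype mice. *Itgax* was at 4.83, 5.05 and 5.76 CPM in mice 8637, 9210 and 9121, and at 2.11 and 1.49 CPM in wildtype mice. Neither integrin overlapped between the genotypes, and *Itgax* was the steadiest of the higher markers among *Fnip1* null mice, with a mean of 5.21 ± 0.482 CPM (SD, n = 3) against 1.80 ± 0.442 CPM (SD, n = 2). *Itgax* also had the smallest adjusted p-value of the markers, at 0.0567 by the quasi-likelihood test and 0.000119 by the exact test, for a log2 fold change of 1.54 (SE 0.24). For *Itgam* the log2 fold change was 1.43 (SE 0.34), with an adjusted p-value of 0.0941 by the quasi-likelihood test and 0.013 by the exact test. *Itgam* overlaps another annotated gene, *Gm49368*, on the same strand, and reads assigned to both are not in its count where the annotation used for counting held both.

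*Itgb2*, the shared partner chain, was at 5.07, 7.79 and 13.9 CPM in mice 8637, 9210 and 9121, and at 4.10 and 2.86 CPM in wildtype mice. All *Fnip1* null mice were again above both wildtype mice, with a log2 fold change of 1.36 (SE 0.46) and a quasi-likelihood adjusted p-value of 0.144. Of 6 tested genes among the 7 listed partners and ligands of these integrins, all 6 had a positive log2 fold change (50.5% of all genes tested), 2 had an unadjusted p under 0.05 (14%) and 4 did not overlap between the genotypes (22.9%). *Icam1*, a ligand on endothelium and other cells, was at 22.9, 19.6 and 32.6 CPM in *Fnip1* null and at 18.0 and 15.1 CPM in wildtype mice, with a log2 fold change of 0.60 (SE 0.23; adjusted p = 0.182). *Icam2*, an endothelial ligand, had a log2 fold change of 0.42 (SE 0.26; adjusted p = 0.349), and *Cyth1*, which regulates integrin adhesion, one of 0.20 (SE 0.10; adjusted p = 0.248).

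*Cd14* encodes a coreceptor that hands bacterial lipopolysaccharide to TLR4. Its level was 3.18, 4.46 and 7.18 CPM in mice 8637, 9210 and 9121, and 2.42 and 2.17 CPM in wildtype mice. The groups did not overlap, but mouse 8637 was nearer to the wildtype mice than to mouse 9121. The log2 fold change was 1.11 (SE 0.38), with an adjusted p-value of 0.151 by the quasi-likelihood test and 0.0862 by the exact test, and it was 1.35 without mouse 8637 (adjusted p = 0.0319) and 0.73 without mouse 9121 (adjusted p = 0.216).

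Genes that act with CD14 differed among themselves. *Tlr4*, which encodes the receptor that CD14 serves, was at 3.18, 5.05 and 5.97 CPM in *Fnip1* null mice and at 3.04 and 1.49 CPM in wildtype mice, without overlap (log2 fold change 1.07, SE 0.40, adjusted p = 0.173). *Tlr2*, another receptor gene that works with CD14, had a log2 fold change of 1.24 (SE 0.53; adjusted p = 0.21), and *Lbp*, whose product delivers lipopolysaccharide to CD14, one of 0.58 (SE 0.33; adjusted p = 0.319), both with overlap. The adaptors had smaller differences. *Myd88* and *Ticam1*, which encode adaptors of toll-like receptors, had log2 fold changes of -0.08 (SE 0.13) and 0.07 (SE 0.15), and *Tirap*, a further adaptor, had one of -0.05 (SE 0.17). The sign of *Myd88* and *Tirap* turned positive when libraries were scaled by their size alone, and that of *Ticam1* turned negative without mouse 8637. In all, 5 of the 8 tested genes of CD14 and TLR4 signalling had a positive log2 fold change (50.5% of all genes tested). The median of the 8 was 0.16, and 1 of them, *Tlr4*, had an unadjusted p under 0.05 (14%).

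*Mrc1* encodes the mannose receptor, which takes up glycoproteins. Its level was 3.71, 7.13 and 6.49 CPM in mice 8637, 9210 and 9121, and 2.80 and 2.06 CPM in wildtype mice. No *Fnip1* null mouse overlapped with wildtype, and *Mrc1* was the one higher marker for which mouse 9210, not mouse 9121, came first. The log2 fold change was 1.25 (SE 0.35), with an adjusted p-value of 0.109 by the quasi-likelihood test and 0.0263 by the exact test.

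*Cd163* encodes the receptor that clears haemoglobin bound to haptoglobin. It had 8, 13 and 3 counts in mice 8637, 9210 and 9121, and 12 and 2 counts in wildtype mice 9055 and 9056. These few counts overlapped and fell short of the filter on low counts, so *Cd163* was not tested. With no filter its log2 fold change was 0.11 (SE 0.86; quasi-likelihood adjusted p = 0.946), so a difference in *Cd163* was not detectable at this depth.

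*Mertk* encodes a receptor tyrosine kinase through which phagocytes bind dying cells. Its level was 65.7, 51.2 and 51.3 CPM in mice 8637, 9210 and 9121, and 67.1 and 64.7 CPM in wildtype mice. Mouse 8637 lay between the wildtype mice and the other *Fnip1* null mice lay below them. The log2 fold change of *Mertk* was -0.23 (SE 0.13; quasi-likelihood adjusted p = 0.316), and it was -0.36 without mouse 8637, with an adjusted p-value of 0.0356 but a change under 2-fold. An antisense gene, *Gm14011*, is annotated within *Mertk*, and whether the counting used strand was not given in the sources used here.

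The bridging ligands of MERTK, which attach it to dying cells, are encoded by *Pros1* and *Gas6*, and *Axl* encodes a sister receptor. *Pros1* was at 38.3, 55.5 and 47.3 CPM in *Fnip1* null mice 8637, 9210 and 9121, and at 23.7 and 17.1 CPM in wildtype mice, a log2 fold change of 1.20 (SE 0.21; quasi-likelihood adjusted p = 0.0644, exact test adjusted p = 6.75e-05). *Axl* was at 40.8, 62.4 and 62.2 CPM in the *Fnip1* null mice and at 30.6 and 18.5 CPM in wildtype mice, a log2 fold change of 1.17 (SE 0.28; quasi-likelihood adjusted p = 0.0923, exact test adjusted p = 0.00361). Both genes were higher in every *Fnip1* null mouse than in either wildtype mouse, in contrast to *Mertk*. *Gas6* was at 582, 601 and 797 CPM in *Fnip1* null mice and at 504 and 487 CPM in wildtype mice (log2 fold change 0.41, SE 0.17, adjusted p = 0.194), and *Mfge8*, another bridging protein, had a log2 fold change of 0.52 (SE 0.12; adjusted p = 0.0916). All 8 tested genes of this list had a positive log2 fold change (50.5% of all genes tested), 6 had an unadjusted p under 0.05 (14%) and 7 did not overlap between the genotypes (22.9%). The quasi-likelihood test called 0 of them higher (0.404%), and DESeq2 (2.64%), the likelihood ratio test (3.44%) and the exact test (3.03%) called 2 each.

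*Csf1r* encodes the receptor on which macrophages depend for survival. Its level was 38.2, 36.4 and 63.9 CPM in mice 8637, 9210 and 9121, and 72.4 and 68.4 CPM in wildtype mice. Each *Fnip1* null mouse had less *Csf1r* than either wildtype mouse, with mouse 9121 close to them. The means were 46.2 ± 15.4 CPM (SD, n = 3) and 70.4 ± 2.81 CPM (SD, n = 2), a log2 fold change of -0.61 (SE 0.25), with an adjusted p-value of 0.193 by the quasi-likelihood test and 0.134 by the exact test. Without mouse 9121 the log2 fold change was -0.91 (adjusted p = 0.0219), and without mouse 8637 it was -0.48 (adjusted p = 0.203), and neither reached 2-fold.

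The 3' end of *Csf1r* overlaps *Hmgxb3* on the opposite strand, so without strand in the counting, reads that fit both genes are left out of both counts. *Hmgxb3* was at 44.2, 37.5 and 44.4 CPM in *Fnip1* null mice and at 55.7 and 57.2 CPM in wildtype mice, also without overlap, a log2 fold change of -0.43 (SE 0.11; adjusted p = 0.0993). *Pdgfrb*, the pericyte and fibroblast receptor gene that lies just before *Csf1r*, had higher rather than lower levels, with 50.2, 61.5 and 64.3 CPM in *Fnip1* null mice and 42.5 and 29.7 CPM in wildtype mice. *Pdgfrb* does not overlap *Csf1r* in the gene models of GENCODE M21. The effect of the overlap with *Hmgxb3* on the count of *Csf1r* was not tested.

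CSF1R has a pair of ligands, encoded by *Il34* and *Csf1*. *Il34* was at 7.54, 7.25 and 8.71 CPM in *Fnip1* null mice 8637, 9210 and 9121, and at 23.6 and 25.1 CPM in wildtype mice. Antisense genes, *Gm15894* and *Gm15895*, overlap it on the other strand, and their part in its count was not tested. *Il34* fell in *Fnip1* null kidneys, with a log2 fold change of -1.63 (SE 0.13; quasi-likelihood adjusted p = 0.033). It was the only gene of the 87 tested in the related lists that passed FDR 5% and 2-fold. The call was lost without mouse 9210, 9055 or 9056, with adjusted p-values of 0.126, 0.213 and 0.491 at log2 fold changes of -1.58, -1.68 and -1.59. *Csf1* was at 12.1, 15.2 and 19.96 CPM in *Fnip1* null mice and at 14.4 and 8.24 CPM in wildtype mice, which overlapped (log2 fold change 0.48, SE 0.30, adjusted p = 0.359).

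*Maf* and *Cebpa*, a pair of lineage factors with expression in other kidney cells too, had log2 fold changes of 0.20 (SE 0.22) and 0.29 (SE 0.18). *Spi1* encodes PU.1, the factor that directs myeloid development, and it was at 2.36, 3.09 and 5.49 CPM in *Fnip1* null mice and at 2.42 and 1.20 CPM in wildtype mice. It overlapped between the genotypes, with a log2 fold change of 1.02 (adjusted p = 0.24).

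**Figure D2:**
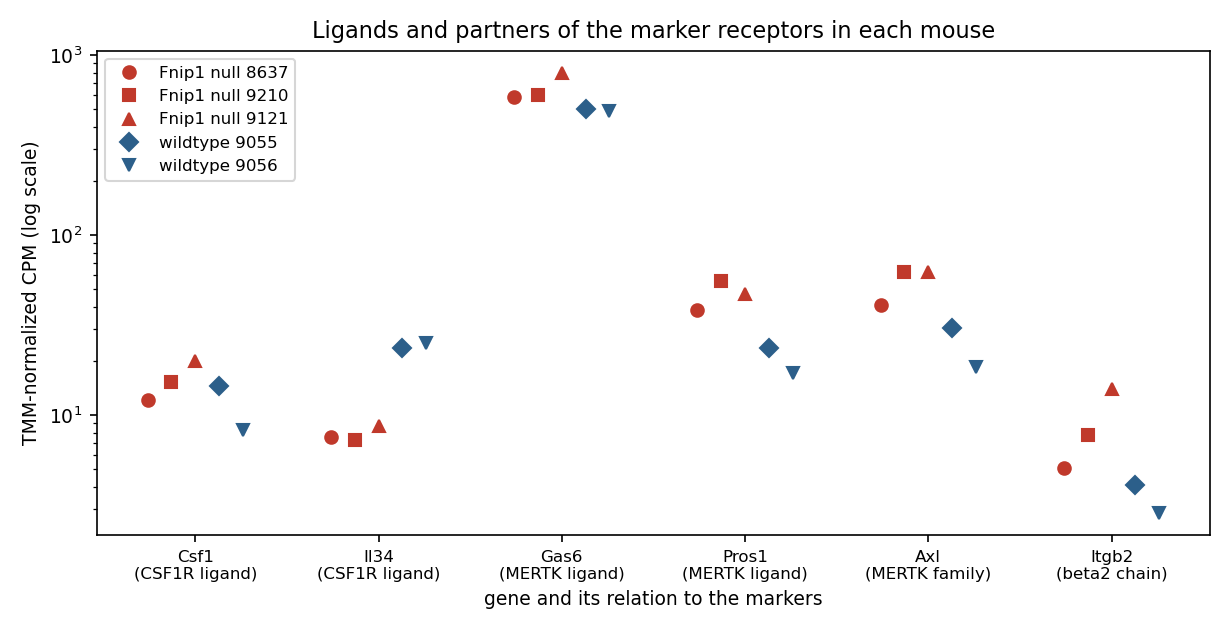
Normalized CPM (log scale) of genes that encode ligands, sister receptors or partners of the markers, in each mouse, with *Fnip1* null mice in red and wildtype mice in blue. *Il34* is lower in every *Fnip1* null mouse, *Csf1* overlaps, and *Gas6*, *Pros1*, *Axl* and *Itgb2* are higher in every *Fnip1* null mouse.

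Promoter sequences are shown for 4 of the 5 markers that the exact test called higher, as the stretch of 250 bases before the start given by RefSeq on GRCm38.p6, so that their shared and differing sequence can be seen. RefSeq entries were matched for 7 of the 10 markers, and *Adgre1*, *Csf1r* and *Cd14* were not matched. The core of the PU.1 motif, GAGGAA, was searched on both strands, and capitals mark it (TTCCTC on the other strand). *Itgam* (chr7:128062390-128062639, + strand) holds GAGGAA beginning 84 bases before the start and TTCCTC beginning 15 bases before it, *Mrc1* (chr2:14229164-14229413, + strand) holds TTCCTC beginning 180, 167 and 35 bases before it, *Cd68* (chr11:69666171-69666420, - strand) holds GAGGAA beginning 225 bases before it, and *Itgax* (chr7:128129300-128129549, + strand) holds neither.
Itgam: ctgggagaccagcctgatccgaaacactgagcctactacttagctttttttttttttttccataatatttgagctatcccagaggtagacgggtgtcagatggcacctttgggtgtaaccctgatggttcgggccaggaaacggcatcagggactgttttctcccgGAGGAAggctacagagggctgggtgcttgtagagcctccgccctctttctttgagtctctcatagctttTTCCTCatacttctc
Mrc1: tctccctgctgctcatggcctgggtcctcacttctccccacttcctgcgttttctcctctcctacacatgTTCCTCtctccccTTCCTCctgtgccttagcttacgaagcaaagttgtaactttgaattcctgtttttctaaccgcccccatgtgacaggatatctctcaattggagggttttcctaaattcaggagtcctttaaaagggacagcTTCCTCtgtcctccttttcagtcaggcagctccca
Cd68: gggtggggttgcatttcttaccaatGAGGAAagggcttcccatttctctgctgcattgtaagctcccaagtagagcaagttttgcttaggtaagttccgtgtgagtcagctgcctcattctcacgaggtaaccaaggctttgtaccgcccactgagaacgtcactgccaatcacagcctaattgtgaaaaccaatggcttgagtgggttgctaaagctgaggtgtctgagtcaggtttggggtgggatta
Itgax: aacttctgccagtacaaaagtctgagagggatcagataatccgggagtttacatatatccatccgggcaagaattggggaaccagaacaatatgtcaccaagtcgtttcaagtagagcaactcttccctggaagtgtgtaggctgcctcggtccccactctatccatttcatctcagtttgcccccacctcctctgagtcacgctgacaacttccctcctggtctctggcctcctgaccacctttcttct
Of 32851 RefSeq promoter windows of this length, 23.3% hold the motif at least once, 3.54% at least 2 times and 0.429% at least 3 times. The windows of *Lyz2*, *Cd163* and *Mertk* hold none. The E-box CACGTG, a sequence that the MiT/TFE family of transcription factors can bind and that is not particular to it, was in none of the 7 windows and in 6.02% of all windows. Other sites of this family were not searched. A match is a description of the letters and does not show binding.

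Levels of different genes were compared only as RPKM, which divides a normalized CPM by the exon length of the gene. In wildtype kidneys the order of mean RPKM was *Mertk* (15.2), *Csf1r* (12.2), *Lyz2* (9.36), *Cd14* (1.33), *Cd68* (1.31), *Adgre1* (1.07), *Mrc1* (0.381), *Itgax* (0.375), *Itgam* (0.251) and *Cd163* (0.0787). The first 3 stood well above the rest, and *Cd14*, *Cd68* and *Adgre1* were close to each other, as were *Mrc1* and *Itgax*. Which kidney cells the RNA of *Mertk* and *Csf1r* came from was not tested. In *Fnip1* null kidneys *Lyz2* came first with 26.9 RPKM, before *Mertk* with 12.9 and *Csf1r* with 8.0. In mouse 8637 *Mertk* came before *Lyz2*, with 15.2 RPKM of *Mertk* and 11.6 of *Lyz2*. The CPM of *Lyz2* varied 7.21-fold over the mice and that of *Mertk* 1.31-fold. *Cd68* followed with 3.73, *Adgre1* with 3.09 and *Cd14* with 2.85 RPKM.

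Within each mouse, counts of the other markers were set against *Csf1r*. All of *Adgre1*, *Cd68*, *Itgam*, *Itgax*, *Cd14*, *Lyz2* and *Mrc1* had a higher ratio to *Csf1r* in every *Fnip1* null mouse than in either wildtype mouse, with differences in mean log2 ratio between 1.68 and 2.21. Each of these 7 ratios had a two-sided exact permutation p of 0.1, the smallest that 3 mice against 2 can give, and an adjusted value of 0.129 over the 9 ratios. Except for *Lyz2*, the separation was fixed by the levels already given. There the marker lay above and *Csf1r* below both wildtype mice in every *Fnip1* null mouse. These ratios are therefore no separate evidence. The ratio of *Mertk* to *Csf1r* overlapped between the genotypes, with a difference of 0.41 (exact permutation p = 0.4).

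Counts per count of *Adgre1*, a comparison added after seeing the data, give the same counts from the side of a higher marker, and the ratio of *Csf1r* is the inverse of the one above. *Csf1r* had 5.19, 4.06 and 4.67 counts per count of *Adgre1* in mice 8637, 9210 and 9121, and 19.7 and 21.0 in wildtype mice. *Mertk* had 8.92, 5.70 and 3.75 counts per count of *Adgre1* in those *Fnip1* null mice, and 18.3 and 19.8 in wildtype mice. Both ratios were lower in every *Fnip1* null mouse, mouse 8637 included, with differences in mean log2 ratio of -2.14 and -1.73. *Cd68* was near its wildtype ratio, with 0.408, 0.450 and 0.514 counts per count of *Adgre1* in *Fnip1* null mice and 0.475 and 0.474 in wildtype mice. The differences in mean log2 ratio for *Itgam*, *Itgax*, *Lyz2* and *Mrc1* were -0.07, 0.07, -0.10 and -0.27, each with overlap between the genotypes. The ratio of *Cd14* was 0.432, 0.497 and 0.525 in *Fnip1* null mice and 0.661 and 0.667 in wildtype mice, a difference of -0.46. The ratios that did not overlap, those of *Csf1r*, *Mertk* and *Cd14*, each had an exact permutation p of 0.1, the smallest possible, and an adjusted value of 0.3.

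**Figure D3:**
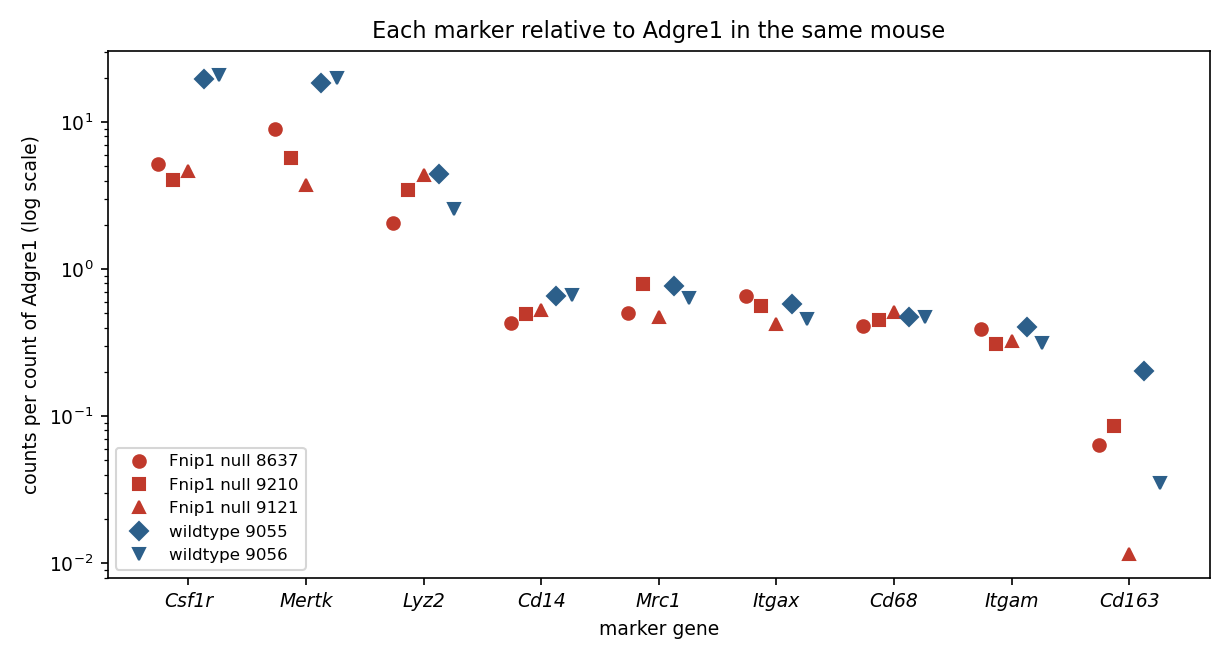
Counts of each marker per count of *Adgre1* in the same mouse (log scale), with *Fnip1* null mice in red and wildtype mice in blue. *Csf1r* drops from 19.7 and 21.0 in wildtype to between 4.06 and 5.19 in *Fnip1* null mice and *Mertk* is lower likewise, while *Cd68*, *Itgam*, *Itgax*, *Lyz2* and *Mrc1* overlap.

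Directions held for each marker under every other test, normalization and filter tried, and under leaving out each mouse. Over 15 other settings, the log2 fold change of *Itgax* ran from 1.30 to 1.81, that of *Adgre1* from 1.09 to 1.72 and that of *Lyz2* from 0.33 to 2.09. Mouse 8637 alone against both wildtype mice, a comparison added after seeing the data, had log2 fold changes of 1.44 for *Itgax*, 1.21 for *Itgam* and 1.09 for *Adgre1*, and of 0.62 for *Mrc1*, 0.48 for *Cd14* and 0.33 for *Lyz2*. In that mouse *Csf1r* had a log2 fold change of -0.88, and 6 markers were above both wildtype mice, as were 37.1% of all genes tested. These are values of a single library, and no test is given for them.

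**Figure D4:**
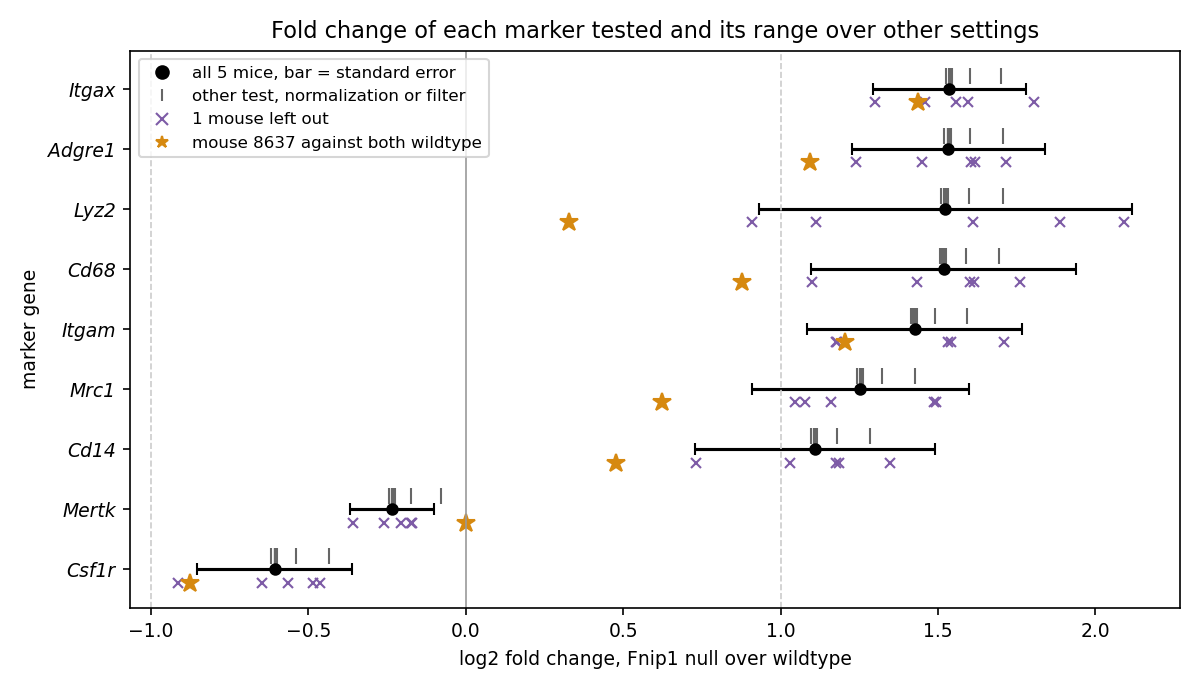
Log2 fold change of the 9 markers tested (black, with its standard error), with the values under other tests, normalizations and filters (grey), with 1 mouse left out (purple) and with mouse 8637 alone against both wildtype mice (orange star). The 7 higher markers stay above 0 in every setting, *Csf1r* stays below 0, and *Mertk* comes to 0 for mouse 8637.

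The markers were next read beside 113 other genes of the same cells, their ligands and their partners, in 12 lists. Of the 87 tested, 3 of them only through *Fnip1* null mice, 81 had a positive log2 fold change (50.5% of all genes tested), with a median of 0.94, and 55 had all *Fnip1* null mice above both wildtype mice (22.9% of all genes tested). Without those 3, 78 of 84 had a positive log2 fold change, with a median of 0.93, and 52 did not overlap. The quasi-likelihood test called 0 of the 87 higher (0.404% of all genes tested) and 1, *Il34*, lower (0.123%). At an unadjusted p under 0.05, 43 were higher (14%). The exact test called 21 higher (3.03%), the likelihood ratio test 23 (3.44%) and DESeq2 23 (2.64%). The lists were known from the field and from earlier results of these data, so their counts describe these mice only.

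Of 20 further macrophage genes, 17 were tested and all 17 had a positive log2 fold change (50.5% of all genes tested), with a median of 1.44, and 16 did not overlap between the genotypes (22.9%). *Mpeg1*, which encodes a pore-forming protein of phagocytes, was at 22.7, 32.3 and 57.4 CPM in mice 8637, 9210 and 9121, and at 15.8 and 9.55 CPM in wildtype mice (log2 fold change 1.57, SE 0.43, adjusted p = 0.109). *C1qa* and *C1qb*, which encode chains of the complement protein C1q, had log2 fold changes of 1.08 (SE 0.33) and 1.22 (SE 0.33). These genes put mouse 9121 highest and mouse 8637 lowest among *Fnip1* null mice, as *Adgre1* and *Cd68* did.

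Monocyte and dendritic cell genes were sparser. *Ccr2*, the chemokine receptor of monocytes, was at 4.13, 4.99 and 7.45 CPM in *Fnip1* null mice and at 2.73 and 1.20 CPM in wildtype mice (log2 fold change 1.5, SE 0.42, adjusted p = 0.113). *Ccr2* had 2.20 without mouse 9055, the higher of the wildtype mice, so the size of its change depended on the wildtype mouse kept. It was 1 of the 3 monocyte genes of 8 that could be tested, and the others were *Plac8*, the most abundant, with a log2 fold change of 0.46 (SE 0.22; adjusted p = 0.245), and *F13a1*, a clotting factor gene of monocytes and macrophages, with 1.43 (SE 0.59; adjusted p = 0.199). *Clec9a* and *Wdfy4*, genes of conventional dendritic cells, had log2 fold changes of 0.97 (SE 0.37) and 0.94 (SE 0.38), whereas *Zbtb46*, a transcription factor of dendritic cells and endothelium, had one of 0.12 (SE 0.34), whose sign turned negative without mouse 9210, mouse 9121 or mouse 9056. Of 12 dendritic cell genes, 10 were tested with a median of 0.89, but 3 of these passed the filter only through *Fnip1* null mice, which fixed their direction. Without those 3 the median was 0.88, and 3 of the other 7 did not overlap between the genotypes (22.9% of all genes tested). All 7 MHC class II genes had a positive log2 fold change (50.5% of all genes tested) and did not overlap (22.9%), with a median of 1.08. *Cd74*, the invariant chain that escorts MHC class II, was at 214, 279 and 528 CPM in mice 8637, 9210 and 9121, and at 197 and 120 CPM in wildtype mice (log2 fold change 1.10, SE 0.42, adjusted p = 0.175), and *H2-Ab1* and *H2-Eb1*, which encode beta chains of MHC class II, had log2 fold changes of 1.04 (SE 0.41) and 1.19 (SE 0.38).

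Among 8 pan-leukocyte genes, all 8 had a positive log2 fold change (50.5% of all genes tested), with a median of 1.05. *Ptprc*, which encodes CD45, was at 11.4, 14.6 and 20.2 CPM in *Fnip1* null mice and at 9.44 and 5.66 CPM in wildtype mice (log2 fold change 1.03, SE 0.32, adjusted p = 0.129). *Laptm5*, a lysosomal protein gene of blood cells, had a log2 fold change of 1.07 (SE 0.39), and *Lcp1*, an actin-bundling protein gene, was level at 0.00 (SE 0.22), and its sign was not stable.

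Of the 6 tested genes for scavenger receptors and haemoglobin clearance, 4 had log2 fold changes above 0 (50.5% of all genes tested) and 2 below. *Cd36*, a fatty acid and scavenger receptor gene that tubule and endothelial cells also express, was at 410, 151 and 145 CPM in *Fnip1* null mice and at 754 and 795 CPM in wildtype mice (log2 fold change -1.72, SE 0.46, quasi-likelihood adjusted p = 0.105, exact test adjusted p = 0.00675). *Lrp1*, a receptor gene for many ligands, had a log2 fold change of 0.70 (SE 0.19), and *Slc40a1*, which encodes the iron exporter ferroportin, one of 0.31 (SE 0.15). Of 9 inflammatory activation genes 4 were tested, all 4 with a positive log2 fold change (50.5% of all genes tested). None of the 4 passed the quasi-likelihood, exact, likelihood ratio or DESeq2 test or had an unadjusted p under 0.05. *Cxcl9* and *Cxcl10*, interferon-induced chemokine genes, were at 11.5 and 15.4 CPM in mouse 9121 and at 1.26 to 4.54 CPM in the other 4 mice. *Nos2*, which encodes inducible nitric oxide synthase, had a log2 fold change of 0.24 (SE 0.52), and *Mgl2* and *Il4ra*, the 2 tested of 7 genes of alternative activation, had 0.45 (SE 0.49) and 0.21 (SE 0.15). The signs of *Cxcl9*, *Cxcl10* and *Nos2* turned negative without mouse 9121.

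**Figure D5:**
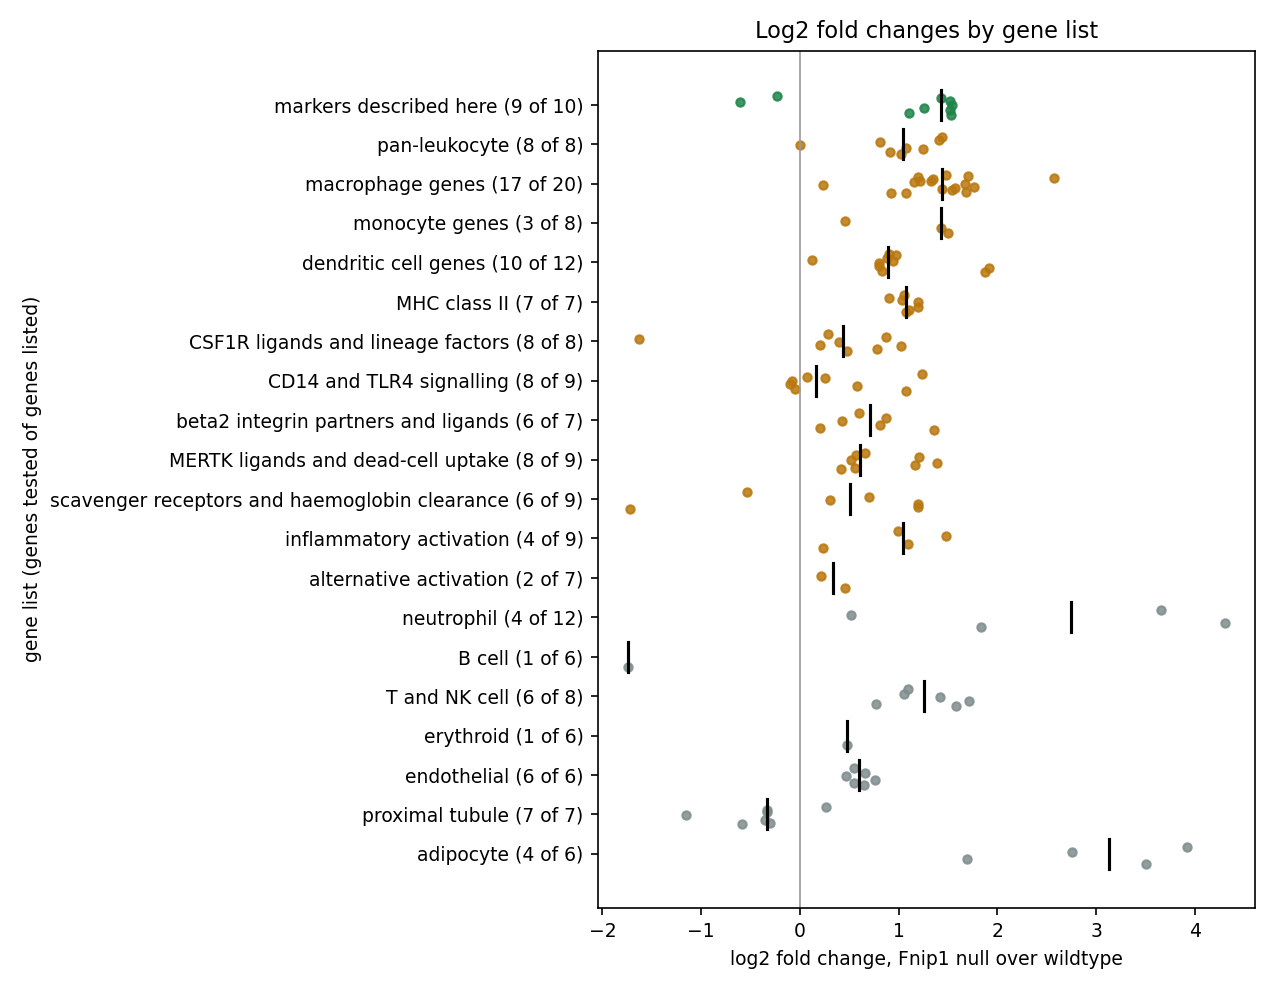
Log2 fold change, *Fnip1* null over wildtype, of each tested gene (points) with the median of each list (black line), for the markers described here (green), 12 lists of related genes (ochre) and lists of other cell types (grey). The markers have a median of 1.43 and the further macrophage genes one of 1.44, while CD14 and TLR4 signalling has 0.16.

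Markers of other cell types moved with the genotypes as well, and their part in the results above was not tested. The summed level of the neutrophil genes was 8.49 to 11.9 CPM in *Fnip1* null mice and 1.77 and 2.30 CPM in wildtype mice, from 11 of 12 listed genes, with *Mpo*, *Elane* and *Camp* at 0 in every mouse and *Ly6g* not analysed here. *S100a9*, a calcium-binding protein gene of neutrophils and monocytes, was at 3.54, 4.10 and 3.91 CPM in *Fnip1* null mice and at 0.311 and 0.286 CPM in wildtype mice, and it rose by a log2 fold change of 3.66 (SE 0.30; quasi-likelihood adjusted p = 0.033). It passed the filter on low counts only through *Fnip1* null mice, and the call was lost without mouse 9210, 9055 or 9056 (adjusted p = 0.126, 0.213 and 0.491). *Itgam* and *Lyz2* are also expressed by neutrophils. The sum of the B cell genes went the other way, with 0.416 to 1.48 CPM over 6 genes in *Fnip1* null mice and 2.40 and 3.36 CPM in wildtype mice. Only 1 of the 6 was tested, none had 10 counts in every mouse, and *Cd22* overlapped between the genotypes. T and NK cell genes summed to 7.84 to 18.9 CPM and to 3.60 and 6.83 CPM, and endothelial genes to 294 to 385 CPM and to 163 and 276 CPM. Proximal tubule genes summed to 8439 to 11520 CPM in *Fnip1* null and to 12627 and 13754 CPM in wildtype mice. Adipocyte genes summed to 54.0, 348 and 162 CPM in mice 8637, 9210 and 9121 and to 36.5 and 35.3 CPM in wildtype mice.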

How the data were processed

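RNAseq was performed by the authors on total RNA of cortical kidney tissue, and libraries of 3 *Fnip1* null and 2 wildtype mice were analysed here. A figure legend of the study counts more wildtype mice, and none beyond these was analysed here. The authors filtered reads for quality, aligned them to mm10 with TopHat2 2.1.0 and assigned them to gene symbols with HTSeq 0.6.1 (bcl2fastq 1.8.2 made the reads), per the labels. The deposited values are these raw counts, 1 file per mouse. The file of mouse 9210 carries another mouse number in its name, and the mouse was taken from the labels. Rows that name no gene held 39.0% to 42.8% of the counts and were left out.

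The analysis used edgeR 4.0.16 and limma 3.58.1 under R 4.3.3. A gene was dropped if over 2 of the 5 mice held under 10 counts of it, and 13874 genes remained. TMM factors were 0.914 to 1.09, and genotypes were compared with the quasi-likelihood test, with Benjamini-Hochberg adjustment over all genes tested. A gene was called at an FDR of 5% and 2-fold. Adjusted p-values come from this test unless another is named. The SE given is the log2 fold change over the square root of its F statistic. CPM are TMM-normalized and errors are SD. RPKM used exon lengths of GENCODE M21. Ratios used raw counts on the log2 scale and an exact permutation test, two-sided, with 0.5 counts added to both genes as another setting. Other tests were edgeR's exact and likelihood ratio tests and DESeq2 1.42.0, and other normalizations, other filters and leaving out each mouse were also tried. The scripts were tested on simulated data.

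The markers and lists were chosen with earlier results of these data known. Named genes are the 10 markers, up to 3 genes of highest mean CPM from each related list, up to 2 from lists of other cell types, and list genes past the threshold. *Itgb2*, *Pros1*, *Csf1*, *Spi1*, *Tlr4*, *Tlr2*, *Lbp*, *Lyz1*, *Hmgxb3* and *Pdgfrb* are named for their place beside a marker and were chosen after their values were seen. A gene that the rule names is not reported here.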

Additional observations from a re-analysis of the deposited data

How the results depend on the processing

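No paired analysis was possible because the mouse numbers are not shared between the genotypes. The number of markers called higher was 0 with the quasi-likelihood test and 5 with the exact test, the likelihood ratio test or DESeq2, and 0 to 7 with 1 mouse left out, where the 7 came without mouse 8637. No other test, normalization or filter called a marker lower, and neither did leaving out 1 *Fnip1* null mouse. Of the related genes, 0 were called higher by the quasi-likelihood test (0.404% of all genes tested). The exact test called 21 (3.03%), the likelihood ratio test 23 (3.44%) and DESeq2 23 (2.64%). Library size scaling only gave 1 (0.526%), and FDR 5% with no 2-fold threshold gave 1 (0.526%). With 1 *Fnip1* null mouse left out, 0 to 29 were called, and the 29 came without mouse 8637 (4.57%). Called lower was 1 related gene (0.123%), 2 by the exact (1.04%) or likelihood ratio test (1.09%), and 0 to 2 with 1 *Fnip1* null mouse left out. Without mouse 9210, 9055 or 9056, no gene at all was called. The 7 markers with a higher ratio to *Csf1r* became 0 with *Adgre1* and 3 with *Ptprc* as the reference, both chosen after seeing the data, as was mouse 8637 alone, where the spread came from the wildtype pair. Leaving out a wildtype mouse leaves 1, assumed to vary like the others.

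Signs turned for small changes, and the cause was not tested. With mouse 8637 alone against wildtype the log2 fold change was 0.000598 for *Mertk*, -0.33 for *Lcp1*, -0.47 for *Zbtb46*, -0.0049 for *Cebpa*, 0.20 for *Tirap*, -0.24 for *Cxcl10*, -0.40 for *Cxcl9*, -0.082 for *Nos2*, -0.011 for *Il4ra* and -0.54 for *Mgl2*. With 1 mouse left out, the log2 fold change ran from -0.24 to 0.15 for *Lcp1*, from -0.18 to 0.49 for *Zbtb46*, from -0.049 to 0.18 for *Ticam1*, from -0.18 to 0.044 for *Tirap*, from -0.037 to 1.36 for *Cxcl10*, from -0.11 to 2.1 for *Cxcl9* and from -0.33 to 1.10 for *Nos2*. With no filter *Lcp1* was at -0.0090, with library size only *Myd88* was at 0.087 and *Tirap* at 0.11, and with upper quartile normalization *Tirap* was at 0.013. Library size scaling moved the median of all genes from 0.0035 to 0.17. With 3 counts as the floor, levels under 0.158 to 0.186 CPM were not told apart from 0, which limits *Cd163* and most monocyte genes.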
